A study of Homo sapiens with 9 samples.

Results

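The 10 genes described here surround PCIF1 on the long arm of human chromosome 20: ACOT8, CTSA, NEURL2, PLTP, ZNF335, MMP9, SLC12A5, NCOA5, CD40 and SLC13A3. They were taken by position, as genes within 1 Mb of PCIF1, and are 10 of the 91 other genes in the table whose annotated start lies in that window and 10 of 58336 genes in all. The measurements come from precision run-on sequencing (PRO-seq), which maps RNA polymerases in the act of transcription, in MEL624, an established melanoma line. The groups were control cells that are wild type and carry a random guide RNA, and cells of KO1 and KO2, 2 PCIF1 knockout clones named clone 1 and clone 2 here, with 3 biological replicates each. Every library was spiked with Drosophila cells, and all groups were grown in the same medium. Each knockout group is a single clone, and the labels do not say whether the control is clonal. The question is whether transcription near the edited gene differed from control.

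The authors' table holds 1 mean per group, so no value below has an SD, no test between groups can be made and the depth of single libraries is unknown. Levels are given as mean normalized counts per kb of counted length, which allows genes to be compared with each other, or as that value multiplied by the length, called a count below. A ratio is log2 of (count + 1) in one group over (count + 1) in another, so it understates the change of low genes, and only the 17149 genes that averaged 10 counts or more across the groups enter a ratio, called compared genes below. Of 9 melanocyte lineage markers, MITF, PAX3 and PMEL reached 10 counts in each group, whereas TYR was listed at 0 in each and SOX10 at 0 in control and clone 1 and at 6.1 counts in clone 2. Of the other lists, the 6 epithelial markers summed to 1242.2, 1095.5 and 1043.0 counts, nearly all from KRT8 and KRT18, the 6 fibroblast markers to 34.1, 59.3 and 49.0, the 4 blood markers to at most 2.0 and the 3 endothelial markers to at most 10.8.

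PCIF1 encodes the enzyme that adds a methyl group at the N6 position of an adenosine next to the mRNA cap, and it binds the phosphorylated tail of RNA polymerase II. It acts on transcripts that begin with adenosine. A deletion, insertion or rearrangement at an edited gene can also alter its neighbours, for instance by moving a promoter or changing the number of copies of a segment, and for this reason genes next to a targeted locus are examined. The neighbours themselves are unrelated in function. ACOT8, CTSA, NEURL2, PLTP, ZNF335 and NCOA5 serve peroxisomes, lysosomes, protein degradation, lipid transfer and gene regulation, while MMP9, SLC12A5, CD40 and SLC13A3 are known for expression in particular tissues.

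Start sequences are shown because the first transcribed base decides whether a transcript can be a substrate of PCIF1. RefSeq promoter windows (GRCh38.p14) were matched for 7 of the 10 genes and for PCIF1; MMP9, CD40 and SLC13A3 are named only. Each sequence below runs 5′ to 3′ on the strand of the gene and holds 20 bases before the annotated start and 10 bases from it on, with the start base in capitals. PLTP has a pair of annotated starts.
ACOT8, chr20:45857383-45857412, minus strand: tccggttactagggcaatctGccggaagag
NEURL2, chr20:45891199-45891228, minus strand: ggtcaaggtccgcgggcctcGcagatcgta
CTSA, chr20:45891315-45891344, plus strand: gactcgtacacatgacttccAgtccccggg
PLTP, inner start, chr20:45910985-45911014, minus strand: aaccggatggggccgaaaagAtaaaggcca
PLTP, outer start, chr20:45912146-45912175, minus strand: cggctggaacaaccctgcccGccagacccc
PCIF1, chr20:45934663-45934692, plus strand: ggtaccagcgcatgcgcagcGcggagtccc
ZNF335, chr20:45972194-45972223, minus strand: ccggcctacaataggccgatGggttcctcc
SLC12A5, chr20:46021666-46021695, plus strand: agggggttgggggatccgctCtttctccct
NCOA5, chr20:46089953-46089982, minus strand: cgccctctgcccccatctccActctccgcc

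An adenosine stood at the annotated start of CTSA, of NCOA5 and of the inner start of PLTP, that is at 3 of 9 starts shown, against 44.4% of the 35116 promoter windows in the RefSeq table. The start bases are annotated and were not measured here. Over the 300 bases of each promoter window (250 before and 50 from the start on), ACOT8 had 13 CpG pairs and NEURL2 31, the lowest and highest of the windows for these genes, against a median of 14 over all windows. The letters TATAAA, searched on both strands, occurred in the windows of 2 of these genes, the outer start of PLTP and ZNF335, and in 11.5% of all windows.

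By their RefSeq starts, CTSA and NEURL2 begin 127 bases apart and are transcribed away from each other. The outermost CTSA start in GENCODE, at 45890144, lies further upstream, inside the annotated NEURL2 gene, and gene positions and distances below follow GENCODE. The 128 bases from the NEURL2 start to the CTSA start are shown because both genes share them; the 6-letter motif CACGTG, which reads the same on both strands and is the core of E-boxes and of lysosomal gene promoters, is in capitals.
CTSA and NEURL2, chr20:45891208-45891335, plus strand: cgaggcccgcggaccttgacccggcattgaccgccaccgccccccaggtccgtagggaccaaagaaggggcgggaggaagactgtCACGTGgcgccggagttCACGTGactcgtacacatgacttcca
This stretch holds the motif at 2 places. CACGTG occurred in 7.26% of all promoter windows and in those of CTSA, NEURL2 and the outer start of PLTP among the 7 genes; the CTSA and NEURL2 windows overlap.

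Among the 10 genes, 6 were transcribed at a level well above the floor in each group and lay close to control, 3 were nearly silent throughout, and SLC13A3 went from near silence in control to a low level in both clones. Of the 7 compared, 1 was at least 1.5-fold off control in clone 1 and 1 in clone 2, in both cases SLC13A3. Over all compared genes, 11.9% were at least 1.5-fold off in clone 1 and 17% in clone 2, so 1 of 7, or 14.3%, is near the background. SLC13A3 was also at least 2-fold off in each clone, which 3.59% of compared genes were in clone 1 and 5.23% in clone 2. SLC13A3 passed the floor only through the clones. The median log2 ratio of the 7 genes was -0.04 in clone 1 and -0.14 in clone 2, against 0.00 in both over all compared genes.

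**Figure D1:**
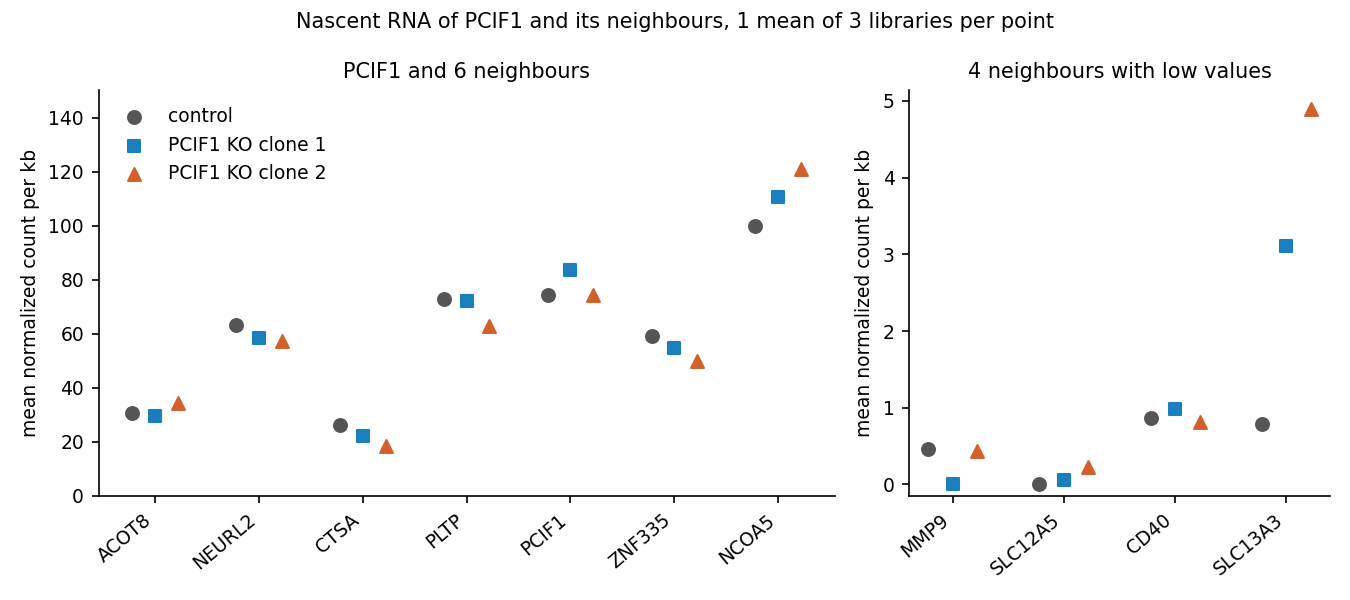
Mean normalized count per kb of PCIF1 and the 10 genes in position order, with 1 point per group (control, clone 1, clone 2), each the authors' mean of 3 libraries; the panels have different scales and no error can be drawn. NCOA5 is the highest in each group, from 100.05 in control to 120.9 in clone 2, and SLC13A3 is the one of the 4 low genes to pass 3 in the clones.

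PCIF1 (ENSG00000100982; GRCh38, chromosome 20, 45934683 to 45948023, plus strand) is the reference point for the distances. Its level was 74.39 per kb in control, 83.74 in clone 1 and 74.33 in clone 2. Clone 1 was the highest of the 3 groups, by 1.13-fold over control. A knockout can leave nascent transcription of the gene in place, so these levels check no label.

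The nearest annotated genes on either side are PLTP and ZNF335. PLTP (ENSG00000100979; 45898621 to 45912155, minus strand) encodes the plasma phospholipid transfer protein and starts 22.5 kb from the PCIF1 start, facing away from it. Its level was 73.02 per kb in control, 72.24 in clone 1 and 62.7 in clone 2. Clone 2 was the lowest, with a log2 ratio of -0.22, and clone 1 lay next to control at -0.02.

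ZNF335 (ENSG00000198026; 45948660 to 45972203, minus strand) encodes a zinc finger protein linked to a histone H3 lysine methyltransferase complex and runs towards PCIF1, with 636 bases between the annotated gene ends. It was at 59.16 per kb in control, 54.79 in clone 1 and 50.1 in clone 2. Both clones were below control, at log2 ratios of -0.11 and -0.24. The gene converging on the edited locus at this short distance thus stayed within 1.18-fold of control.

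CTSA (ENSG00000064601; 45890144 to 45898949, plus strand) encodes cathepsin A, a lysosomal carboxypeptidase that also protects beta-galactosidase and neuraminidase. Its level was 26.17 per kb in control, 22.18 in clone 1 and 18.52 in clone 2. It had the lowest ratios of the 7 compared genes, -0.24 in clone 1 and -0.49 in clone 2, or 1.18-fold and 1.41-fold below control. A noncoding gene inside CTSA on the opposite strand, ENSG00000271984, went from 25.0 counts in control to 23.5 in clone 1 and 14.9 in clone 2, where its log2 ratio was -0.71. From its outermost GENCODE start, the CTSA gene also shares 1065 bases with NEURL2 and 329 bases with PLTP on the opposite strand. The strand setting of the authors' counting is unknown, so reads of these overlaps cannot be assigned with certainty.

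NEURL2 (ENSG00000124257; 45888625 to 45891208, minus strand), an adaptor of a ubiquitin ligase known from muscle, shares the sequence shown above with CTSA. It was at 63.15 per kb in control, 58.32 in clone 1 and 57.17 in clone 2. Its ratios, -0.11 and -0.14, were smaller in size than those of CTSA. The difference between them has no test.

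ACOT8 (ENSG00000101473; 45841721 to 45857405, minus strand) encodes a peroxisomal acyl-CoA thioesterase and starts 77.3 kb from PCIF1. Its level was 30.61 per kb in control, 29.7 in clone 1 and 34.5 in clone 2. The clones lay on either side of control, at -0.04 and 0.17. Its annotated 3′ part shares 1556 bases with SNX21 on the opposite strand, which had log2 ratios of -0.13 and -0.19.

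NCOA5 (ENSG00000124160; 46060991 to 46089962, minus strand), a nuclear receptor coregulator, was the most strongly transcribed of the 10 genes per kb and above 87.4% of compared genes in control. It was at 100.05 per kb in control, 110.55 in clone 1 and 120.9 in clone 2. Both clones were above control, by 1.1-fold and 1.21-fold. Together with SLC13A3 it made up the 2 of 7 compared genes that were above control in both clones. The other 5 were ACOT8, with 1 clone on each side, and the 4 genes below control in both clones, CTSA, NEURL2, PLTP and ZNF335, which start at most 44.5 kb from PCIF1. Over all compared genes 38.8% were below control in both clones and 37.6% above it in both. The clones share their control, and a single high or low control mean would place a gene on the same side in both.

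The 3 silent neighbours are genes of restricted expression. MMP9 (ENSG00000100985; 46008908 to 46016561, plus strand), the secreted gelatinase of the matrix metalloproteinases, was at 0.46 per kb in control, listed at 0 in clone 1 and at 0.43 in clone 2, each about 1 count or less. SLC12A5 (ENSG00000124140; 46021690 to 46060150, plus strand), the neuronal potassium-chloride cotransporter, was listed at 0 in control, at 0.06 per kb in clone 1 and at 0.23 in clone 2. CD40 (ENSG00000101017; 46118271 to 46129863, plus strand), the receptor by which B cells and macrophages receive T cell help, was at 0.86, 0.99 and 0.82 per kb. None of these 3 genes reached 3 counts in a group, and at that level no difference between groups can be read. SLC12A5 sits with its annotated end 840 bases from the end of NCOA5, the highest of the 10 genes per kb, without reaching a level near it.

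SLC13A3 (ENSG00000158296; 46557823 to 46684467, minus strand), the sodium-coupled transporter that takes up succinate and other dicarboxylates, is the farthest of the 10 genes, with its outermost annotated start 749.8 kb from that of PCIF1. Its level was 0.79 per kb in control, 3.11 in clone 1 and 4.89 in clone 2. Control was the lowest group and clone 2 the highest, with log2 ratios of 1.78 and 2.40, or 3.43-fold and 5.29-fold. In counts these levels are 4.8, 18.8 and 29.6, and in control SLC13A3 was above 0.501% of compared genes.

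Genes next to the SLC13A3 start also lay above control in both clones; they were chosen after their values were seen. TP53RK, a kinase of the complex that modifies tRNA, lies on the same strand and its annotated 3′ end shares 103 bases with the outermost SLC13A3 transcript. Its control count of 504.3 compares with 611.5 in clone 1 and 642.0 in clone 2, and its ratios were 0.28 and 0.35. The divergent transcript TP53RK-DT had 59.1, 73.0 and 89.4 counts. ENSG00000273893, a noncoding gene within SLC13A3 on the same strand and 1989 bases beyond the end of TP53RK, had 17.8, 26.1 and 37.9 counts, with ratios of 0.53 and 1.05. All 4 genes thus had their order control, clone 1, clone 2 from low to high. How many of all compared genes had this order was not counted, though 37.6% were above control in both clones. The 4 genes overlap or adjoin each other and share 1 control, so they do not count as separate cases. PRO-seq also records polymerases that have passed the end of a gene. SLC13A3 was counted over 6055 bases, 4.78% of its span, and the part of transcription from TP53RK in its value was not tested. SLC2A10, a glucose transporter gene beyond TP53RK-DT, did not share this order, at 3.6, 11.7 and 0 counts. It averaged under the floor, so it is not a compared gene and its order carries little weight. SLC2A10 too was picked with its values in view.

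Between the clones, in a comparison that does not use control, 1 of the 7 compared genes was at least 1.5-fold off and none at least 2-fold, against 8.17% and 1.98% of compared genes. The 1 gene was SLC13A3, 1.54-fold higher in clone 2. With a pseudocount of 5, or with the pseudocount of 1 added to the value per kb, it was no longer 1.5-fold off. Without a pseudocount it was 1.57-fold higher in clone 2. At its mean count, between 10 and 50, the middle 95% of 5232 genes had log2 ratios from -1.01 to 1.05 in this comparison, and SLC13A3 at 0.63 lay inside. The 6 other compared genes ran from -0.26 for CTSA to 0.21 for ACOT8, and each lay inside the range of its count. Such a range includes true clone differences, so it does not stand in for replicate error.

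In order of level per kb in control, the genes stood as NCOA5, PLTP, NEURL2, ZNF335, ACOT8, CTSA, CD40, SLC13A3, MMP9 and SLC12A5. PCIF1 lay between NCOA5 and PLTP, above 81.4% of compared genes. The median level of compared genes was 30.0 per kb, next to ACOT8. The order of the first 6 was the same in each group, while SLC13A3 passed CD40 in both clones. Whether adjacent genes in this order differ beyond replicate spread cannot be said. NCOA5, the highest, and CTSA, the lowest of the 6, differed 3.82-fold in control.

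The 10 genes are a chosen part of the neighbourhood, and the other compared genes within 1 Mb number 25. Of all 32 compared genes in the window other than PCIF1, 2 were at least 1.5-fold off control in clone 1 and 6 in clone 2, that is 6.25% and 18.8%, against the 11.9% and 17% of all compared genes given above. A single gene of the 32, SLC13A3, passed 1.5-fold in both clones. Of the 32, 7 passed it in at least 1 clone. Besides SLC13A3 these were ENSG00000271984 and ENSG00000273893, described above, with TP53RK-DT at a ratio of 0.59 in clone 2, and 3 protein-coding genes. TNNC2, the fast skeletal muscle troponin C, had 40.4, 60.9 and 67.1 counts. ZNF334, a zinc finger gene, went from 236.8 counts to 153.2 in clone 1 and 208.5 in clone 2, and was the 1 gene of the window at least 1.5-fold lower in clone 1. DBNDD2, a dysbindin-domain gene, had 15.7, 15.0 and 25.5 counts, with ratios of -0.07 and 0.66. A further 30 genes of the window, among them WFDC5, PI3 and SEMG1 of the protease inhibitor and semen protein cluster, were listed at 0 in all groups.

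**Figure D2:**
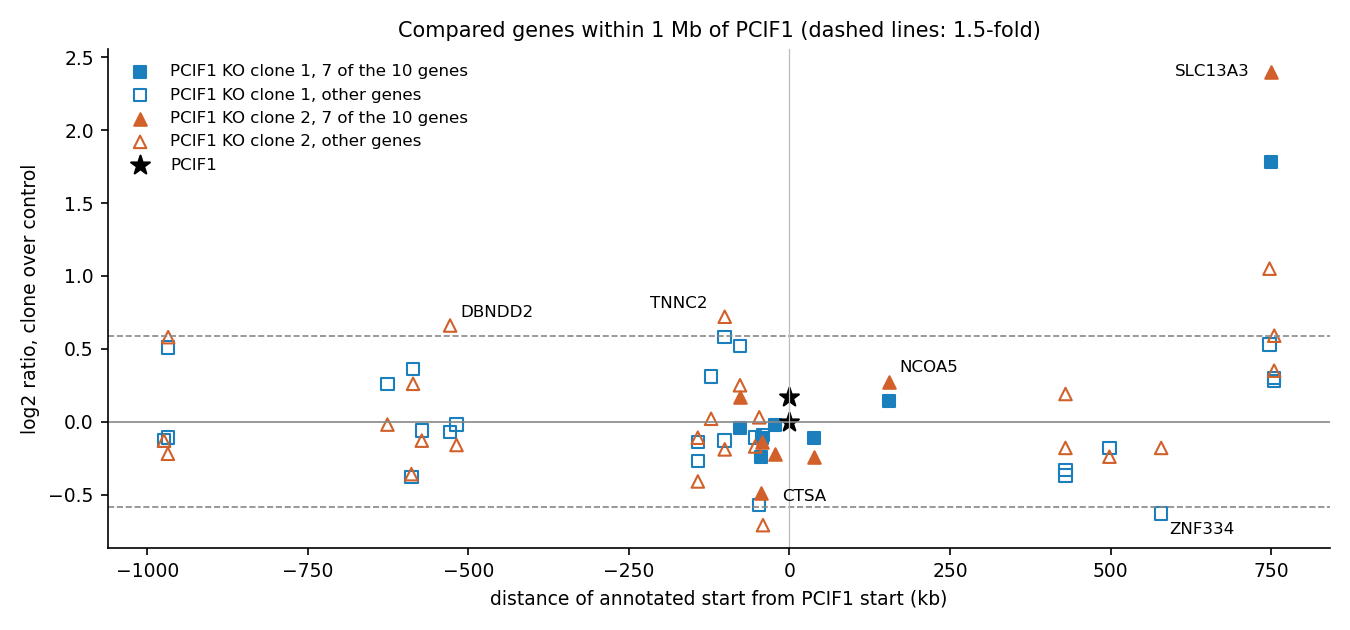
Log2 ratio of each clone over control (vertical axis) against the distance of the annotated start from the PCIF1 start in kb (horizontal axis) for PCIF1, the 7 compared genes of the 10 (filled) and the other compared genes (open). Most points lie between the dashed lines at 1.5-fold; SLC13A3 stands at 1.78 and 2.40 near 750 kb, and CTSA at -0.49 in clone 2 is the lowest filled point.

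Ratios were next set against distance. The 9 compared genes within 0.1 Mb of the PCIF1 start had median ratios of -0.11 (clone 1) and -0.17 (clone 2). Of these 9, 0 were at least 1.5-fold off in clone 1 and 1, ENSG00000271984, in clone 2. Of all compared genes, 11.9% were off in clone 1 and 17% in clone 2. With 9 genes and no test, no departure from these shares can be read. The 9 genes from 0.1 to 0.5 Mb had medians of -0.14 and -0.11, and the 14 genes from 0.5 to 1 Mb 0.12 and 0.12. Beyond the window, the 61 genes from 1 to 5 Mb had medians of 0.01 and -0.04, and the 209 compared genes on the rest of the long arm -0.03 and -0.08. The medians of the classes nearest to PCIF1 thus lay within 0.17 of that of all genes on the log2 scale, and without replicate error they cannot be ordered. Within 0.1 Mb, 8 of the 9 genes were below control in clone 1 and 6 in clone 2. Of the 32 within 1 Mb, 21 and 18 were below, against 8702 and 8645 of all 17149 compared genes. The clones share their control and some of these genes overlap, so these counts are no test. The class from 0.5 to 1 Mb holds the group of genes around TP53RK described above, and its medians were -0.04 and -0.07 with protein-coding genes only.

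The short arm of the same chromosome differed more. Its 140 compared genes had median ratios of -0.41 (clone 1) and -0.45 (clone 2), and 36.4% and 43.6% of them were at least 1.5-fold off. In clone 1, 48 of the 51 such genes were lower, and in clone 2, 52 of 61 were; over all compared genes the share 1.5-fold lower or more was 4.94% and 7.23%. Within 1 Mb of PCIF1 the medians were -0.08 and -0.12. The difference between these regions has no test.

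**Figure D3:**
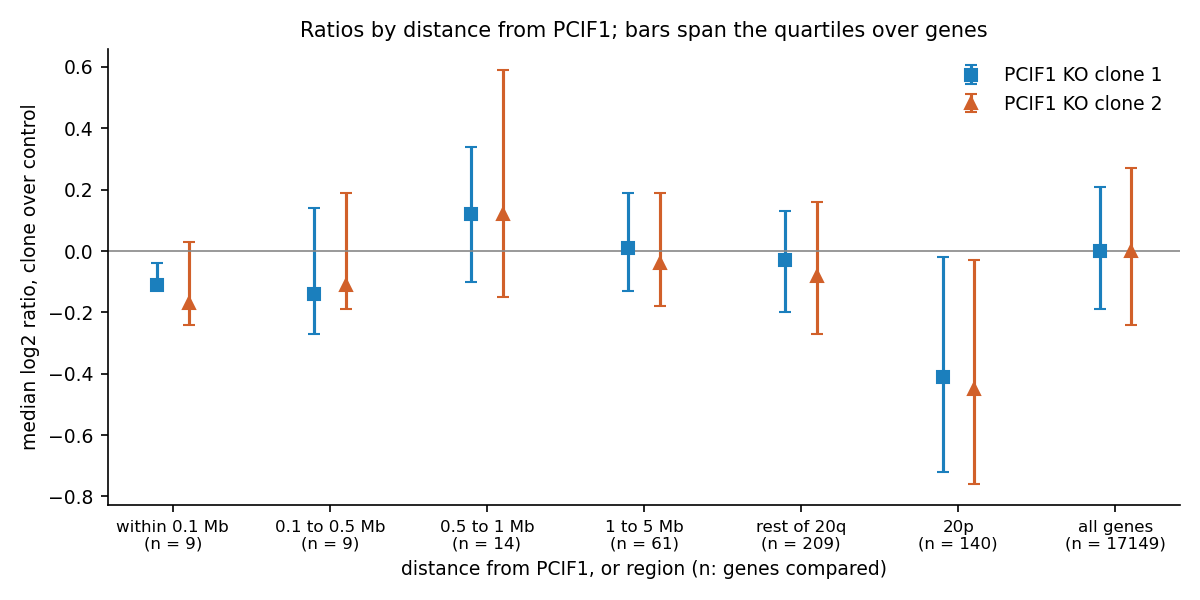
Median log2 ratio of each clone over control (points) for compared genes by distance from PCIF1, for the rest of 20q, 20p and all genes; bars span the quartiles over genes and are no replicate error. The classes within 1 Mb have medians between -0.17 and 0.12, and 20p lies at -0.41 and -0.45.

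By the rule for like patterns, the genes nearest to SLC13A3 in the pair of ratios, among 3943 genes of mean count within 2-fold of it, were LINC02963 on chromosome 12 (2.9, 13.2 and 19.2 counts, in the order control, clone 1, clone 2), TMEM238 on chromosome 19 (4.0, 15.9 and 23.2) and the noncoding gene ENSG00000258902 on chromosome 14. Their distances from it on the log2 scale were 0.087, 0.14 and 0.22. For CTSA, among 7004 genes of like count, they were the histone gene H4C11 (163.4, 138.4 and 115.3 counts), ENGASE and the growth factor gene PDGFA, at 0.005, 0.013 and 0.015. The 3 genes nearest to SLC13A3 were, like it, low in control (2.9, 4.0 and 4.1 counts) and passed the floor only through the clones. None of the 6 lies on chromosome 20, which says little about position, since few compared genes lie there. Of the 17149 compared genes, 32 lie within 1 Mb of PCIF1 and 61 from 1 to 5 Mb. The rest of the long arm holds 209 and the short arm 140. The likeness rests on 3 group means.

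Genes that share a family, complex or pathway with the 10 were examined in 12 lists, chosen with earlier results of these data known. ACOT8 belongs to the acyl-CoA thioesterases, of which 6 of 11 were compared. Of these 6, 0 were at least 1.5-fold off in either clone, against 11.9% (clone 1) and 17% (clone 2) of compared genes. ACOT2, a mitochondrial member, had 69.5, 56.1 and 49.3 counts, and ACOT7 354.6, 407.5 and 414.5. Of 26 peroxisome genes, all compared, 2 were at least 1.5-fold higher in clone 1 and 2 in clone 2, with none lower in either, against 6.93% and 9.76% of compared genes that were at least 1.5-fold higher. ACOX2, an oxidase for branched chains, had 48.4, 73.9 and 92.0 counts, and EHHADH, the bifunctional enzyme of peroxisomal beta-oxidation, 101.6, 171.5 and 145.1. ACOX2 passed 1.5-fold in both clones and EHHADH in clone 1 only. The other gene counted in clone 2 was ACAA1, with 179.4, 236.4 and 321.3 counts, named after its values were seen. The medians of the peroxisome list were 0.10 and 0.16, above the 0.00 of all compared genes.

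For CTSA, 26 of 27 lysosomal genes were compared, with medians of 0.01 and 0.00 in the clones. In clone 1, 3 were at least 1.5-fold higher and 0 lower, against 6.93% and 4.94% of compared genes. In clone 2, 4 were higher and 2 lower, against 9.76% and 7.23%. CTSH, the gene of the list under the floor, had 16.6, 1.6 and 4.7 counts. The floor thus left a gene that was lower in both clones out of these counts. The cathepsin genes CTSF (9.0, 18.8 and 35.5 counts) and CTSS (6.5, 16.2 and 15.2) had the largest ratios by their mean size over both clones. Both were under 10 counts in control and passed the floor only through the clones, and both are among the higher genes counted above. In clone 2, PSAP, the gene of the saposin precursor, lay between them at 1.29 (CTSF 1.87, CTSS 1.11). Of the partners of cathepsin A in the lysosome, NEU1, the neuraminidase, had 37.6, 36.8 and 37.4 counts. GLB1, the beta-galactosidase, had 197.3, 201.2 and 273.9. Whether their ratios differ from those of CTSA was not tested. PSAP, CTSH and the partners were chosen from the list after their values were seen.

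NEURL2 shares its family with NEURL4, the other of 5 members compared, at 115.6, 113.4 and 107.2 counts. PLTP was the 1 compared gene of 8 in the lipid transfer family, so CETP and BPI are among those under the floor. Of 12 genes of cholesterol efflux, 9 were compared and 0 were at least 1.5-fold off in either clone. Of all compared genes, 11.9% were off in clone 1 and 17% in clone 2. LCAT, which esterifies cholesterol in lipoproteins, had 88.6, 61.4 and 64.9 counts, and APOE 46.3, 49.7 and 34.0. PLTP lay near the medians of this list, -0.05 and -0.14, at -0.02 and -0.22, and these medians include PLTP itself.

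The methyltransferase complexes to which ZNF335 is linked were measured at all 17 genes, with medians of -0.12 and -0.20. Of the 17, 0 were at least 1.5-fold off in either clone, against 11.9% (clone 1) and 17% (clone 2) of compared genes. KMT2B had 383.8, 286.2 and 271.1 counts and SETD1B 290.3, 217.5 and 221.6, both methyltransferases of histone H3 lysine 4. ZNF335 at -0.11 and -0.24 lay next to the list's medians, which include ZNF335 itself. Around NCOA5, 16 of 17 coregulator and receptor genes were compared, with medians of 0.10 and -0.03. In clone 1, 1 was at least 1.5-fold higher and 0 lower, or 6.25% off against 11.9% of compared genes. In clone 2, 1 was higher and 1 lower, or 12.5% off against 17%. NCOA4, which also carries ferritin to the lysosome, had 137.0, 179.4 and 270.8 counts, and PPARGC1A, the coactivator of mitochondrial biogenesis, 23.4, 44.1 and 29.7.

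The silent neighbours belong to families with transcribed members. Among 27 matrix metalloproteinases and their inhibitors, 12 were compared. In clone 1, 1 was at least 1.5-fold higher and 1 lower, or 16.7% off against 11.9% of compared genes. In clone 2, 3 were higher and 2 lower, or 41.7% off against 17%. The medians were 0.10 and -0.19, and with 12 genes and no test nothing particular to the list can be read from these shares. MMP15, a membrane-bound enzyme, had 19.7, 7.0 and 6.1 counts, and MMP3, stromelysin, 48.6, 38.9 and 15.5. Of 15 cation-chloride cotransporter and regulator genes 9 were compared, with medians of -0.19 and -0.23. None was at least 1.5-fold off in clone 1, against 11.9% of compared genes. In clone 2, 1 was higher and 1 lower, or 22.2% off against 17% of compared genes. SLC12A8 had 21.9, 16.3 and 12.7 counts and SLC12A4, a transporter of the same branch as SLC12A5, 281.4, 202.1 and 203.9.

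In the CD40 pathway 19 of 23 genes were compared, with medians of 0.02 and -0.13. None was at least 1.5-fold off in clone 1, against 11.9% of compared genes. In clone 2, 3 were lower and 0 higher, against 7.23% of compared genes lower and 9.76% higher. MAP3K14, the kinase of the noncanonical NF-kB branch, had 434.0, 332.6 and 273.5 counts, and TRAF1 18.6, 14.4 and 11.2. CD40 itself stood at about 2 counts. The 3 other genes under the floor were its ligand gene CD40LG, listed at 0 in each group, TNFRSF13B with at most 0.4 counts, and TNFRSF1B with 10.2, 1.1 and 0.7. SLC13A3 was the 1 compared gene of the 5 sodium-coupled carboxylate transporters; SLC13A4, picked later, stood at 1.8, 3.4 and 3.7 counts and SLC13A5 was listed at 0 in each group.

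**Figure D4:**
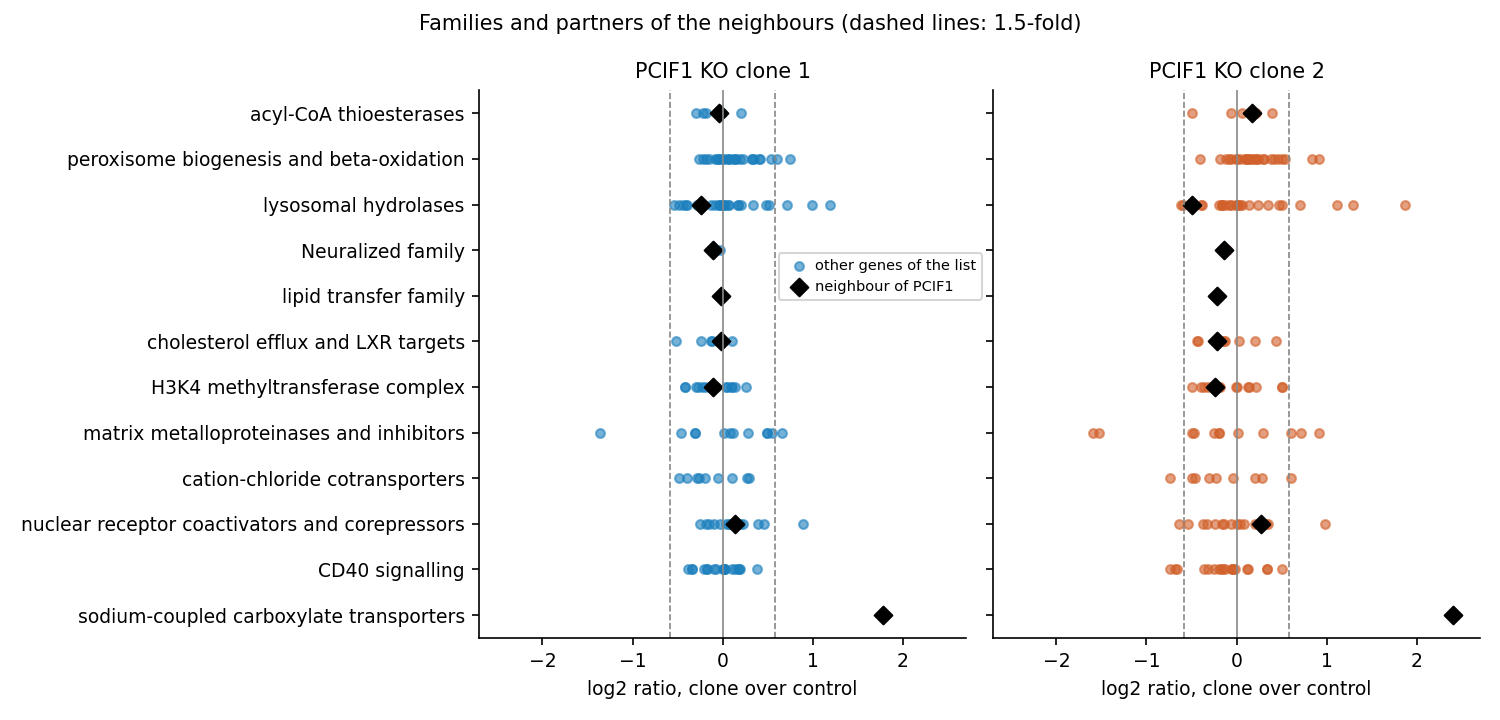
Log2 ratio of each clone over control for the compared genes of 12 lists, 1 list per row, with genes of the PCIF1 neighbourhood as black diamonds and dashed lines at 1.5-fold. The diamonds other than SLC13A3, at 1.78 and 2.40, lie within the spread of the lists that hold several other genes.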

How the data were processed

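PRO-seq was carried out on 9 libraries, 3 for each of 3 groups. The deposited table gives a signal, the mean normalized count per kb of each group, averaged and scaled by the authors per the file headers. Tools listed in the submitters' processing notes are cutadapt 1.14, Bowtie 1.2.2, featureCounts and DESeq2, and builds are hg38, dm3 and GRCh38.p12. What feature was counted, on which strand, and whether the spike-in set the scale: not given in the sources used here. Its header has 6 names and each row 5 cells; the symbol cell was taken as missing. Symbols and GRCh38 positions come from GENCODE release 44 (582 identifiers unmatched). Values were multiplied by length in kb, a pseudocount of 1 added and log2 ratios taken; a floor of 10 was set on the mean count. Library depth is unknown. No test was possible, so shares of all compared genes past 1.5-fold and 2-fold are given. The ratio calculation was tested on simulated data. The genes and lists were chosen with earlier results of these data known. Named genes were PCIF1, the 10 genes, compared genes within 1 Mb at least 1.5-fold off, the 3 genes nearest in pattern to the 2 compared genes with the largest ratios, and 2 genes per list; others are said to be chosen later. The short arm was taken to end at position 28100000. Python 3.11.15, numpy 2.4.6, pandas 2.3.3 and matplotlib 3.10.9 were used.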

Additional observations from a re-analysis of the deposited data

How the results depend on the processing

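No paired analysis was possible because the table holds 1 mean per group; leaving out each replicate in turn was not run for the same reason. A ratio or median counts as moved where it shifted by 0.1 or more (log2), a count where it changed by more than 1.5 times. Of 462 recomputed values, 46 moved and 416 did not, and none past 1.5-fold changed sign. Part of this was fixed in advance. A floor cannot alter the ratio of a single gene, and a pseudocount or the scale per kb cannot change its sign. Median-of-ratios rescaling and windows of 0.5 and 2 Mb moved none. The rescaling factors, 1.01 (control), 1.005 (clone 1) and 0.996 (clone 2), were too alike to move a ratio by 0.1.

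SLC13A3 (1.78 in clone 1, 2.40 in clone 2) had ratios of 1.28 and 1.82 with a pseudocount of 5, and 2.51 in clone 2 with 0.5. On the scale per kb the pseudocount of 1 was added to the value per kb. It weighs more there for a gene counted over 6055 bases, and the ratios were 1.2 and 1.72. Clone 2 over clone 1 was 0.52 per kb. Without a pseudocount, clone 1 was 3.94-fold and clone 2 6.19-fold over control, so the length scaling itself lowered no ratio. Between the clones, 0 of the 10 genes were then 1.5-fold off with a pseudocount of 5 or per kb. With a floor of 50, SLC13A3 leaves the comparison and 0 of the 10 genes are 1.5-fold or 2-fold off in any comparison. With no floor, the silent genes MMP9 and SLC12A5 enter: 3 were 1.5-fold off in clone 1, 2 in clone 2 and 3 between the clones, and 2, 2 and 1 were 2-fold off.

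Of genes within 1 Mb, 1.5-fold off numbered 2 in clone 1, 6 in clone 2 and 4 between clones. With no floor they were 10, 13 and 17 (4, 7 and 4 at 2-fold), with a floor of 50 they were 1, 2 and 0 (0 at 2-fold in each clone). With a pseudocount of 0.5, 4 were off in clone 1; with 5, 1 was 2-fold off in clone 2 and 1 was 1.5-fold off between clones. The median from 0.5 to 1 Mb (0.12 in each clone) was -0.02 and -0.13 with a floor of 50, 0.00 and 0.00 with none, and -0.04 and -0.07 for protein-coding genes; from 0.1 to 0.5 Mb it was -0.02 in clone 1 and -0.03 between clones with no floor. Matrix metalloproteinase medians became 0.00 and 0.02 with no floor and -0.08 in clone 2 with a floor of 50, and cotransporter medians -0.05 and 0.00 with no floor. In each of these the set of genes compared changed, except for the pseudocounts and the scale per kb. Group means alone limit precision, since library depth is unknown.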
